A study of Mus musculus with 36 samples.

Results

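The genes described are 29 genes of cholesterol synthesis, uptake and trafficking in liver and eWAT of male mice on 3 diets. They were chosen by pathway membership, as a list of symbols matched to Ensembl identifiers, and not by their levels in these libraries. All 29 were among the 14052 genes of the liver table and the 16690 genes of the eWAT table, in which every gene had more than 0.5 CPM (read counts scaled to a fixed library total) in at least 6 of 18 libraries. The list holds 7 genes of the mevalonate and isoprenoid steps, 3 of the squalene steps, 8 that turn lanosterol into cholesterol, 4 that control the sterol-responsive transcription factor SREBP, 5 of transport and uptake, and 2 of esterification.

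The mice were wild-type C57BL/6 males of the founder generation (F0), were 24 weeks old and had eaten chow until 6 weeks of age. From then on HF mice ate high-fat food for 18 weeks, HFLF mice ate it for 9 weeks and low-fat food for the next 9, and LF mice ate low-fat food for all 18 weeks. The text on treatment spells the diet of the HF group HLD, while the diet label of those samples is HFD. RNA sequencing started from total RNA of liver and of eWAT, the usual abbreviation of epididymal white adipose tissue, the fat pad beside the epididymis. Each diet had 6 libraries per tissue, 36 in all. The labels do not say that the libraries of a group came from separate mice, so the p-values measure the spread between libraries. The study's text gives 4 to 6 samples per group, where 6 are listed.

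Cells make cholesterol from acetyl-CoA through mevalonate, farnesyl diphosphate, squalene and lanosterol. When membranes of the endoplasmic reticulum are poor in sterol, Scap carries SREBP2, the product of Srebf2, to the Golgi, where it is cut to release a transcription factor that raises most genes of the pathway. Insig proteins hold Scap back when sterol is plentiful. Liver makes cholesterol for lipoproteins and bile acids, while adipocytes keep a large store of free cholesterol, and cholesterol taken up in lipoproteins leaves lysosomes through Npc2 and Npc1 and is stored as esters made by Soat enzymes.

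Total counts ran from 11662551 to 23295485 per liver library and from 8941798 to 31186477 per eWAT library. Liver libraries held Alb at 50386 CPM or more, and the adipocyte markers Adipoq, Plin1 and Lep were not in the liver table. Liver LF libraries 1 to 4 stood apart from the other 14: their metallothionein gene Mt2 lay between 354 and 422 CPM, against 0.892 and 2.04 CPM in LF libraries 6 and 5 and 0.601 to 9.33 CPM in HF and HFLF livers, and their summed 7 stress and acute-phase genes between 5148 and 10767 CPM, against 1229 and 1272 CPM in those 2. All 7 of these genes were lower in HF and in HFLF than in LF livers, and the clock output gene Dbp was 2.56 and 5.16 CPM in LF libraries 1 and 2. Of 4 clock genes (Dbp, Nr1d1, Arntl and Per1), 1 was lower and 0 higher in HF than in LF livers. In HFLF against LF livers 2 were lower and 0 higher. The part of the clock genes in the liver results was not tested. In eWAT, Adipoq lay at 789.8 CPM or more in every library. The epididymal gene Crisp1 reached 218 CPM in LF library 3, 7.05 CPM in HFLF library 4 and 5.16 CPM in HF library 1, and less than that in the other 15. Of the adipocyte markers, liver libraries held Cidec and Fabp4, both higher in HF than in LF livers, and their part in the liver results was not tested. In eWAT 4 of 6 hepatocyte markers were lower in HF than in LF. Alb lay at 2.55 to 99.3 CPM in HF, 9.73 to 135 CPM in HFLF and 27.6 to 666 CPM in LF. Cyp2e1, of the same list, lay at 1969 to 7260 CPM in LF eWAT. It was highest there in library 3, while Alb was highest in library 5. The source of these transcripts was not tested. Liver results against LF are therefore also given without LF libraries 1 to 4, and eWAT results without 6 libraries (HF 1, HFLF 4 and 6, LF 3, 4 and 5), a set taken over from earlier work on these data.

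Of the 29 genes, 22 had an entry in RefSeq's promoter table (GRCm38.p6), and the 250 bases before each start were searched on both strands for 3 motifs. The CCAAT box, which the factor NF-Y binds and which often lies beside SREBP sites, was in 20 of 22 (90.9%), against 37.5% of the 27025 genes in the table. The core of the sterol regulatory element, TCACNCCAC, was in 1 of 22 (4.55%), that of Hmgcs1, against 1.22% of all genes. The E-box CACGTG, which SREBP proteins can also bind, was in 5 of 22 (22.7%), against 6.86%. A gene with several starts counted if any window held the motif. Fdps, Fdft1, Sqle, Scarb1, Stard4, Npc1 and Soat2 had no entry. The windows of Hmgcs1, Mvd and Insig2 are shown because in eWAT Hmgcs1 and Mvd were lower and Insig2 was higher on HFLF than on HF. These windows also overlapped 0 bases of exons in GENCODE M21. They are written 5′ to 3′ in the direction of transcription and end at the base before the start. Capitals mark CCAAT, or its complement ATTGG, and in Hmgcs1 also the sterol element core TCACCCCAC.
Hmgcs1, chr13:119690101-119690350, plus strand: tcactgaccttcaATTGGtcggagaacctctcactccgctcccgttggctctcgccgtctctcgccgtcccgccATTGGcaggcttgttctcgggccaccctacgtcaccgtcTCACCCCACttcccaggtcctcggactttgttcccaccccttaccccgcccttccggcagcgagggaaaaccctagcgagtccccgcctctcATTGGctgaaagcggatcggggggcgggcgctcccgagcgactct
Mvd, chr8:122443423-122443672, minus strand: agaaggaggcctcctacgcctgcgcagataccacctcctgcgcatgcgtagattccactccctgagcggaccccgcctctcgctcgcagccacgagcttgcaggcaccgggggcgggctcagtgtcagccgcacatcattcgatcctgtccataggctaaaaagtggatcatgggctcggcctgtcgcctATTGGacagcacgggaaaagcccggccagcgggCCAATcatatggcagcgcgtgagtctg
Insig2, chr1:121332590-121332839, minus strand, the first of 3 starts: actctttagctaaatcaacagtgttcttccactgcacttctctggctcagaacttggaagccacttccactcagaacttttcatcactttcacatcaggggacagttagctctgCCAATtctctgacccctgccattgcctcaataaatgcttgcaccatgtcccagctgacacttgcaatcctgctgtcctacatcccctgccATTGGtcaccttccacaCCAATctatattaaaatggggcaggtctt
Counted from the start, with -1 as the base before it, the boxes of Hmgcs1 began at -237, -176 and -45 and its sterol element core at -137. Those of Mvd began at -60 and -27, and those of Insig2 at -136, -46 and -29. The windows of the other Insig2 starts held 0 boxes, and which start was used in eWAT was not tested. Ebp was also lower on HFLF than on HF in eWAT. Its window, not shown, overlapped 0 exon bases and held boxes at -170 and -55. A match is a run of letters and not a measured binding site. In GENCODE M21 the gene of Hmgcs1 lies at chr13:119690379-119708260, that of Mvd at chr8:122433601-122443422 and that of Insig2 at chr1:121304353-121332589.

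In liver the HF diet went with higher counts of 4 of the 29 genes and lower counts of 1. Hmgcs1, Mvk and Msmo1 rose, 3 of the 18 synthesis genes, and so did the lysosomal cholesterol exporter Npc1, while the HDL receptor gene Scarb1 fell. The other 24 did not pass an adjusted p of 0.05 by edgeR's quasi-likelihood test (Benjamini-Hochberg over all 14052 genes), although 7 of the 29 had an unadjusted p under 0.05. Over all liver genes 16.3% were called higher and 18.5% lower in HF, beside 4 and 1 of the 29. Of all called genes 46.9% were higher, and 61.2% under upper-quartile scaling. The median log2 fold change of the 29 genes was 0.12, and that of all genes 0.00061.

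Hmgcs1 encodes the cytosolic synthase that makes HMG-CoA, the precursor of mevalonate. It had 157, 395 and 797 CPM in HF livers (lowest, median and highest of 6 here and below, scaled by TMM), against 179, 204 and 284 CPM in LF livers. HF library 1 was the highest of the 12 and HF library 3 the lowest, so the groups overlapped at the low end. The log2 fold change was 0.98 ± 0.33, adjusted p = 0.0285 (± SE here and throughout; further values in brackets without another name are log2 fold changes).
Mvk, the kinase that first phosphorylates mevalonate, had 15.9, 38 and 47.7 CPM in HF livers and 16.5, 18.7 and 30.9 CPM in LF livers, a log2 fold change of 0.73 ± 0.25, adjusted p = 0.0335. HF library 3 was again below all LF libraries.
Msmo1 encodes a monooxygenase that helps remove methyl groups from lanosterol derivatives. It had 64.6, 197 and 234 CPM in HF livers and 73.3, 88.2 and 139.9 CPM in LF livers (log2 fold change 0.86 ± 0.29, adjusted p = 0.0296). Of its 6 HF libraries, 4 lay above every LF library and library 3 lay below all of them.
These 3 calls lay near the threshold and depended on single libraries. Without HF library 1 the adjusted p was 0.0861 for Hmgcs1, 0.0591 for Mvk and 0.0678 for Msmo1, and all 3 calls were also lost without LF library 1 or without LF library 2, which left 1 gene called higher each time. Without HF library 2, HF library 6 or LF library 4, 2 genes were called higher. Of the 12 fits that left out 1 HF or LF library, 8 kept the call of Hmgcs1, 5 that of Mvk and 7 that of Msmo1.

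**Figure D1:**
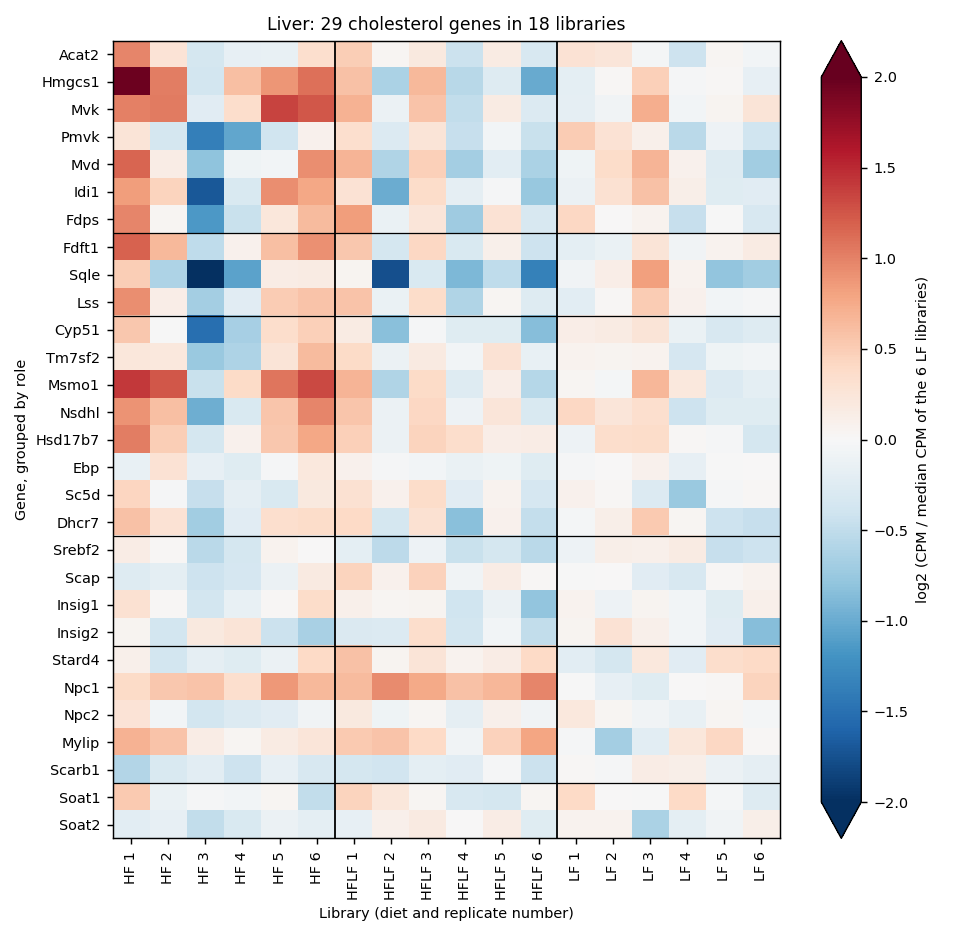
Liver levels of the 29 genes (rows, grouped by role with black lines between groups) in 18 libraries (columns), each cell the log2 ratio of its CPM to the median CPM of the 6 LF libraries. HF library 3 was the lowest HF library for 17 of the 18 synthesis genes and HF library 1 the highest for 13, and Npc1 was above the LF median in all 12 HF and HFLF libraries.

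Npc1, the membrane protein that passes cholesterol out of lysosomes, had 142, 165 and 204 CPM in HF livers and 95.3, 112 and 153 CPM in LF livers. Its log2 fold change was 0.54 ± 0.11, adjusted p = 0.0018, and 1 LF library, number 6 at 153 CPM, lay within the HF range. Scarb1, the receptor that takes cholesterol esters from HDL, had 169, 205 and 226 CPM in HF livers and 223, 254 and 280.4 CPM in LF livers, with a log2 fold change of -0.33 ± 0.09, adjusted p = 0.00743. Here only the highest HF library and the lowest LF library crossed. Both calls were kept in all 12 fits that left out 1 library. None of the 29 genes had HF libraries wholly above or wholly below the LF libraries, where 5.06% of all liver genes lay wholly above and 5.89% wholly below.

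**Figure D2:**
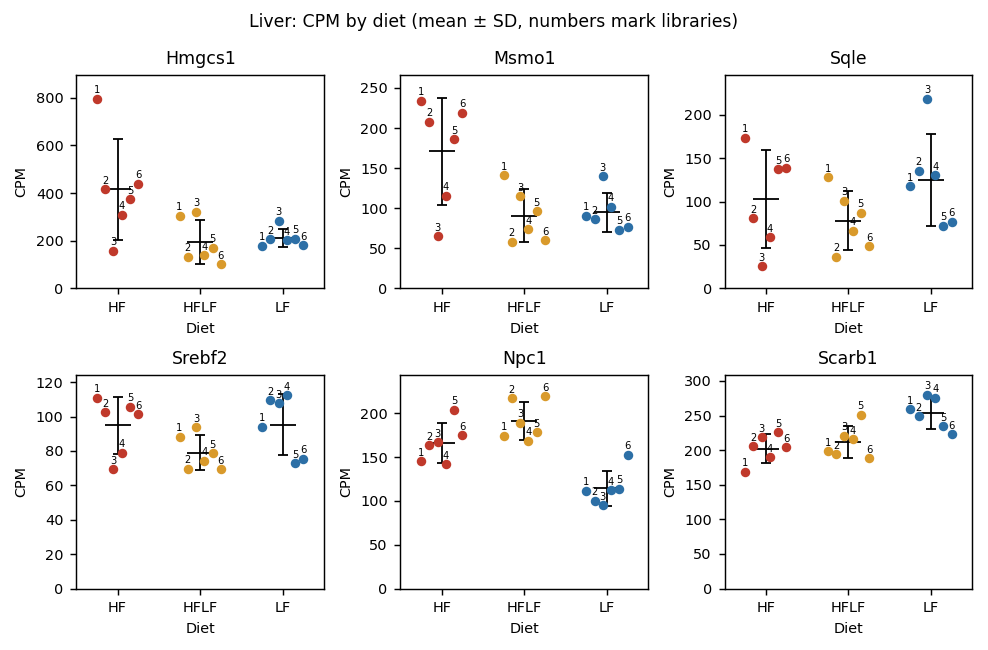
CPM of Hmgcs1, Msmo1, Sqle, Srebf2, Npc1 and Scarb1 in the 18 liver libraries by diet, with the mean ± SD of 6 libraries as bars and the library number beside each point. HF library 3 is the lowest of the HF points of Hmgcs1, Msmo1, Sqle and Srebf2, and the HFLF points of Npc1 lie above all LF points.

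Of the genes that control SREBP, 0 of 4 were called in liver HF against LF. Srebf2, which encodes SREBP2, had 69.3, 102 and 111 CPM in HF livers and 73, 101 and 112 CPM in LF livers, a log2 fold change of -0.01 ± 0.13, adjusted p = 0.969. Insig1, which is itself raised by SREBP and holds Scap in the endoplasmic reticulum, had 256, 338 and 425 CPM in HF livers and 280.5, 332 and 354 CPM in LF livers (0.08 ± 0.14, adjusted p = 0.679). The groups overlapped for both genes. Scap stood at -0.11 and Insig2 at -0.05 on the log2 scale, neither called.

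Among the remaining synthesis genes in liver HF against LF, Sqle, the squalene epoxidase that oxidises squalene, had 25.4, 109 and 174 CPM in HF livers and 71.9, 124 and 219 CPM in LF livers. Its log2 fold change was -0.29 ± 0.41, adjusted p = 0.607, with overlapping groups. Fdft1, the squalene synthase, and the sterol ketoreductase gene Hsd17b7 had log2 fold changes of 0.56 ± 0.23, adjusted p = 0.0642 and 0.42 ± 0.18, adjusted p = 0.0813, with unadjusted p under 0.05 but no call. The other 12, Acat2, Pmvk, Mvd, Idi1, Fdps, Lss, Cyp51, Tm7sf2, Nsdhl, Ebp, Sc5d and Dhcr7, were not called and lay between -0.38 (Pmvk) and 0.39 (Nsdhl). Stard4 (-0.10), Npc2 (-0.11), Mylip (0.34), Soat1 (-0.10) and Soat2 (-0.16) were not called either.

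The liver calls were lost when LF libraries 1 to 4, those with high stress genes, were left out. Without them, which leaves 2 LF libraries assumed to vary like the other groups, 0 of the 5 calls were kept. Calls over all genes fell from 4891 to 297 in that fit, so lost calls cannot be told apart from the smaller LF group. The log2 fold changes were then 1.10 for Hmgcs1, 0.73 for Mvk, 1.19 for Msmo1, 0.32 for Npc1 and -0.18 for Scarb1, with adjusted p of 0.281, 0.315, 0.173, 0.249 and 0.431. Those of the 3 synthesis genes were thus about as large as with all libraries, and those of Npc1 and Scarb1 were smaller. Without LF libraries 1 and 2 only, the calls of Npc1 and Scarb1 were kept. The part of the stress genes in these results was not tested.

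After the switch to low-fat food, 2 of the 29 liver genes were higher in HFLF than in LF and 1 was lower, all of them in transport and uptake. Npc1 and Mylip rose and Scarb1 fell, and 0 of 18 synthesis genes was called. Over all liver genes 10.2% were called higher and 12.4% lower, beside 2 and 1 of the 29. Of all called genes 45.1% were higher, and 61.7% under upper-quartile scaling. Of the 29 genes, 4 had an unadjusted p under 0.05. The median log2 fold change of the 29 was -0.022, against -0.0012 for all genes.

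Npc1 had 169, 184 and 219.7 CPM in HFLF livers and 95.3, 112 and 153 CPM in LF livers, with a log2 fold change of 0.74 ± 0.11, adjusted p = 0.0007. Every HFLF library lay above every LF library, as for 2.78% of all liver genes (3.37% lay wholly below). Mylip, a ubiquitin ligase that sends lipoprotein receptors to degradation, had 12.3, 18.3 and 22.4 CPM in HFLF livers and 8.10, 13 and 17.2 CPM in LF livers, a log2 fold change of 0.48 ± 0.16, adjusted p = 0.0442 that 3 of 12 fits without 1 library kept. Scarb1 had 188, 207 and 251 CPM in HFLF livers and 223, 254 and 280.4 CPM in LF livers (-0.26 ± 0.09, adjusted p = 0.0345), kept in 5 of 12. The Mylip call was lost except without HFLF library 4, LF library 4 or LF library 5, and the Scarb1 call was lost without any 1 of HFLF libraries 1, 2 and 6 or LF libraries 1 to 4. Without LF libraries 1 to 4 the log2 fold changes were 0.52 for Npc1, 0.25 for Mylip and -0.11 for Scarb1, and none was called (adjusted p of 0.142, 0.61 and 0.704).
Srebf2 had 69.4, 76.4 and 93.7 CPM in HFLF livers, against 73, 101 and 112 CPM in LF livers (-0.27 ± 0.13, adjusted p = 0.143), with overlapping groups. Insig1 had 191, 323 and 354 CPM in HFLF livers and 280.5, 332 and 354 CPM in LF livers (-0.13 ± 0.14, adjusted p = 0.537). Sqle had 36.5, 76.9 and 128 CPM in HFLF livers and 71.9, 124 and 219 CPM in LF livers (-0.68 ± 0.41, adjusted p = 0.243). None of the 3 was called, and the groups of the other two overlapped too. The 3 genes that rose on HF lay close to the LF level, at -0.11 for Hmgcs1, 0.00 for Mvk and -0.06 for Msmo1. The other 20 members, not called, ran from -0.28 (Cyp51) to 0.27 (Scap).

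Between HFLF and HF livers, edgeR called 0 of the 29 genes, with 2.18% of all genes higher and 3.05% lower. Of the 29, 6 had an unadjusted p under 0.05. The log2 fold changes were -1.09 ± 0.33, adjusted p = 0.0611 for Hmgcs1, -0.73 ± 0.26, adjusted p = 0.0984 for Mvk, -0.92 ± 0.29, adjusted p = 0.071 for Msmo1, -0.54 ± 0.23, adjusted p = 0.172 for Fdft1, 0.38 ± 0.11, adjusted p = 0.0526 for Scap and 0.26 ± 0.11, adjusted p = 0.176 for Soat2. DESeq2 called 4 of these, with Hmgcs1, Mvk and Msmo1 lower and Scap higher in HFLF, and limma voom called Scap. Hmgcs1 had 101, 154 and 321 CPM in HFLF livers and 157, 395 and 797 CPM in HF livers, and HFLF libraries 1, 3 and 5 lay above HF library 3. Srebf2 had 69.4, 76.4 and 93.7 CPM in HFLF livers and 69.3, 102 and 111 CPM in HF livers (-0.26 ± 0.13, adjusted p = 0.245), and Insig1 had 191, 323 and 354 CPM in HFLF livers and 256, 338 and 425 CPM in HF livers (-0.21 ± 0.14, adjusted p = 0.405). Sqle had 36.5, 76.9 and 128 CPM in HFLF livers and 25.4, 109 and 174 CPM in HF livers (-0.39 ± 0.41, adjusted p = 0.628). The ranges of all 3 overlapped between these diets. The remaining 20 genes ran from -0.52 (Idi1) to 0.30 (Stard4). HF and LF are each compared with HFLF here and with each other above, so the 3 comparisons share libraries.

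The synthesis genes had large coefficients of variation between liver libraries of 1 diet. Over the 18 synthesis genes the median coefficient of variation was 38.5% in HF livers, 29.4% in HFLF livers and 20.3% in LF livers. Over all genes with a mean CPM between the lowest and the highest synthesis gene it was 9.1%, 9.6% and 12.3% in HF, HFLF and LF livers. The highest library exceeded the lowest by a median of 3.17 times in HF, 2.15 times in HFLF and 1.76 times in LF livers, and by up to 6.84 times for Sqle in HF. The extremes of many genes fell in the same libraries. HF library 3 was the lowest of 6 for 17 of 18 genes, against 15% of all liver genes, and HF library 1 the highest for 13, against 21.6%. HFLF library 1 was the highest for 15 (13.5% of all genes) and LF library 3 the highest for 13 (16%). These ranks are a description with no test, since the genes of 1 library share its RNA and depth. HF library 1, without which the calls of Hmgcs1, Mvk and Msmo1 were lost, also had the highest sums of adipocyte, stromal, macrophage and endothelial markers in the HF livers, while its Kupffer cell markers summed to 200.4 CPM, within the HF range of 149.5 to 216.6 CPM. Its 2 measured adipocyte markers summed to 168 CPM, against 14.1 to 93.3 CPM in the other 5. In library 1 Cidec gave 142.5 CPM and Fabp4 25.8 CPM of this sum, while Adipoq, Plin1 and Lep were not in the liver table. The stromal, macrophage and endothelial markers of HF library 1 summed to 257, 153 and 108 CPM. In HF library 3 these 4 sums were 39.9, 125, 105 and 80.2 CPM, the last the lowest of the group. Stress genes summed to 777 CPM in HF library 1 and 1256 CPM in HF library 3, within the HF range of 640.1 to 1332 CPM. Single genes of this sum were at opposite extremes in these libraries. Among HF livers Hspa5 was lowest in library 1 (495.41 CPM) and highest in library 3 (1107.7 CPM). The metallothionein genes Mt1 and Mt2 were highest in library 1 and lowest in library 3, with Mt2 at 9.33 and 1.63 CPM. Lcn2 was highest in library 1 and lowest in library 6, and Saa1, Saa2 and Cxcl1 had their extremes in other HF libraries. The part of these markers in the liver results was not tested.

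Levels per length differed widely between members. In LF livers Sc5d, the sterol desaturase, had the highest mean at 114 CPM per kb of exon, followed by Insig1 (105), Ebp (86.6), Insig2 (70.0) and Hmgcs1 (45.7). Soat1 was the lowest at 0.525 CPM per kb, and Mylip (4.00) and Idi1 (4.46) were next. Soat2, the esterifying enzyme of hepatocytes, stood at 33 CPM per kb. In LF eWAT the order was another one, with Npc2, the soluble lysosomal cholesterol carrier, highest at 131 CPM per kb, then Insig1 and Pmvk (48.2 and 48.2) and Hmgcs1 (43). Soat2 was the lowest there at 0.619 CPM per kb, and Soat1 stood at 1.96. The tables of both tissues were scaled separately, so these orders hold within a tissue.

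In eWAT the HF diet went with 7 of the 29 genes higher and 4 lower than in LF. Hmgcs1, Hsd17b7 and Dhcr7 of synthesis rose, with Insig1, Npc1, Npc2 and Soat1. Acat2, Pmvk and Fdft1 of synthesis fell, with Insig2. The background was 20.6% of all genes higher and 20.2% lower, and 14 of the 29 had an unadjusted p under 0.05. The 29 genes had a median log2 fold change of 0.16, against -0.023 for all genes. As these are pieces of whole tissue, fewer cells of a type and less RNA per cell cannot be told apart.

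Dhcr7, the reductase of the last step to cholesterol, had 35.2, 56.1 and 75.4 CPM in HF eWAT and 12.8, 21.3 and 29.8 CPM in LF eWAT. All HF libraries lay above all LF libraries, and the log2 fold change was 1.42 ± 0.27, adjusted p = 0.000557. Hmgcs1 had 325, 378 and 469.8 CPM in HF eWAT and 139, 184 and 286 CPM in LF eWAT (0.96 ± 0.24, adjusted p = 0.00515), again with no overlap. Hsd17b7 rose by 0.57 ± 0.19, adjusted p = 0.0223 on the log2 scale. In the opposite direction, Fdft1, whose enzyme joins farnesyl diphosphate to squalene, had 19.8, 31.6 and 48.2 CPM in HF eWAT and 52.3, 60.5 and 72 CPM in LF eWAT (-0.89 ± 0.17, adjusted p = 0.000615). Every HF library was below every LF library. Acat2, the cytosolic thiolase at the start of the pathway (-0.74 ± 0.19, adjusted p = 0.00483), and the phosphomevalonate kinase gene Pmvk (-0.61 ± 0.20, adjusted p = 0.0204) were lower as well, with overlapping groups.
Within 1 pathway, neighbouring steps thus went both ways. Of the 12 synthesis genes not called, Lss (0.53 ± 0.23, adjusted p = 0.0779) and Msmo1 (0.39 ± 0.17, adjusted p = 0.0762) had unadjusted p under 0.05, and Mvk, Mvd, Idi1, Fdps, Sqle, Cyp51, Tm7sf2, Nsdhl, Ebp and Sc5d ran from -0.17 (Tm7sf2) to 0.45 (Mvd). Fdft1 lies opposite the cathepsin gene Ctsb on the other strand, and the strand setting of the counting is not given, so reads from their overlap cannot be told apart. Npc1 with Rmc1 is in the same position, as are Mvd with Gm20388, Cyp51 with Akap9 and Hmgcs1 with the antisense gene Gm48342. Fdps and Tm7sf2 share a strand with overlapping genes, and Acat2 has a close paralogue, Acat3.

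**Figure D3:**
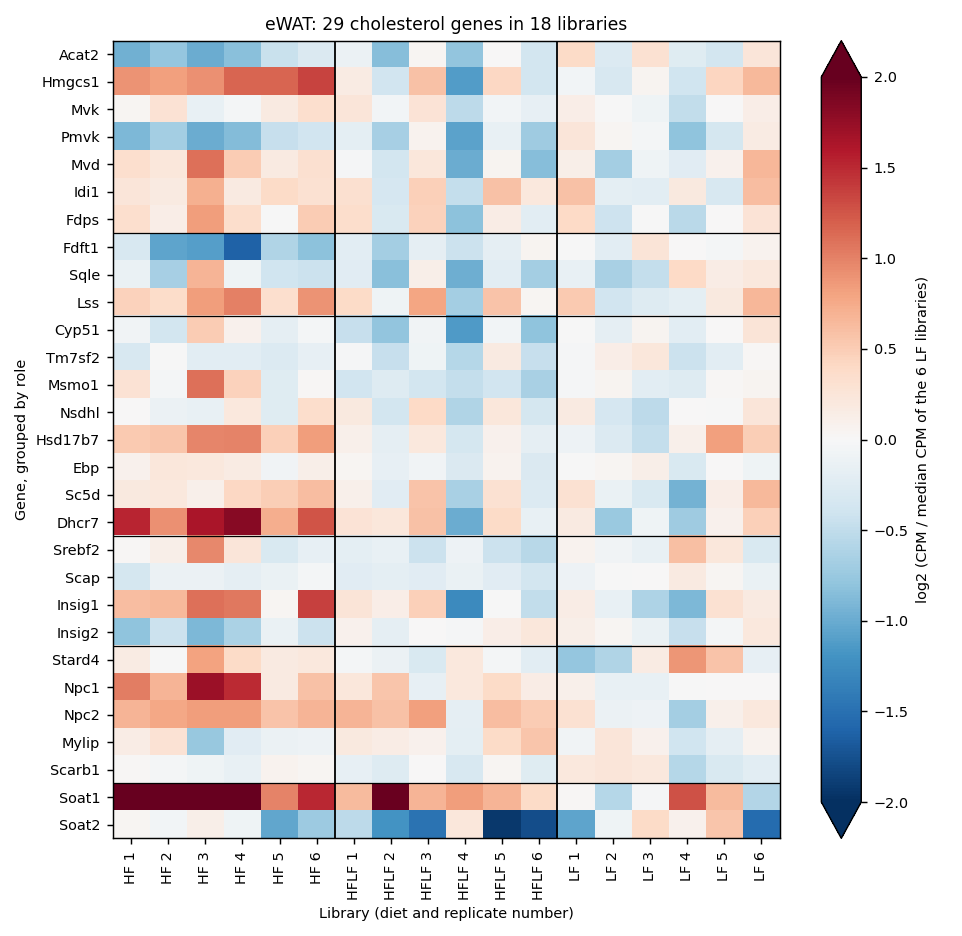
eWAT levels of the 29 genes (rows, grouped by role with black lines between groups) in 18 libraries (columns), each cell the log2 ratio of its CPM to the median CPM of the 6 LF libraries. Dhcr7, Hmgcs1, Npc1 and Npc2 were above and Fdft1 below the LF median in all 6 HF libraries, and HFLF library 4 was the lowest HFLF library for 15 of the 18 synthesis genes.

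The genes of SREBP control split in eWAT. Insig1 had 166, 293 and 415 CPM in HF eWAT and 86.2, 162 and 198 CPM in LF eWAT, and rose (0.97 ± 0.28, adjusted p = 0.011). Insig2, its homologue, had 52.4, 67.6 and 89 CPM in HF eWAT and 70.8, 97.6 and 114 CPM in LF eWAT, and fell (-0.51 ± 0.13, adjusted p = 0.0045). The ranges of both genes overlapped between the diets. Srebf2 (0.11 ± 0.19, adjusted p = 0.673) and Scap (-0.15 ± 0.06, adjusted p = 0.0554) were not called, and the Scap value had an unadjusted p under 0.05.

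Soat1, Npc1 and Npc2, of esterification and lysosomal export, rose on HF in eWAT, and so did 7 macrophage markers given after them. Soat1 encodes an enzyme that stores cholesterol as esters in macrophages and other cells. It had 31.3, 96.2 and 231 CPM in HF eWAT and 10.5, 15.8 and 38 CPM in LF eWAT. The log2 fold change was 2.49 ± 0.47, adjusted p = 0.000597, and HF library 5, the lowest of its group, lay below LF library 4. Npc1 had 44.2, 70.4 and 126 CPM in HF eWAT and 34.8, 38.8 and 41.5 CPM in LF eWAT (1.07 ± 0.20, adjusted p = 0.000605), with no overlap. Npc2 had 1066, 1191 and 1285 CPM in HF eWAT and 446, 719 and 889 CPM in LF eWAT (0.75 ± 0.16, adjusted p = 0.0016), also with no overlap. In all, 4 of the 29 genes lay wholly above LF and 1 wholly below, against 9.44% and 6.39% of all eWAT genes. Stard4 (0.18), Mylip (-0.07), Scarb1 (0.02) and Soat2 (-0.13) were not called.

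All 7 macrophage markers (Adgre1, Cd68, Csf1r, Lyz2, Trem2, Gpnmb and Itgax) were higher in HF than in LF eWAT. Their sum ran from 1161 to 10279 CPM in HF (median 4086), from 788 to 2799 CPM in HFLF (median 987) and from 419.6 to 799 CPM in LF (median 561), and none of the 7 was at 0 in any library. The 6 HF libraries had the same order, 3, 4, 1, 2, 6 and 5 from high to low, for this sum, for Soat1 and for Npc1. Soat1 stood at 231, 147, 119, 73.4, 44.6 and 31.3 CPM in that order, and Npc1 at 126, 109, 78.9, 61.9, 58.3 and 44.2 CPM. The summed stromal markers (Pdgfra, Dcn and Col1a1) had that order too, from 4090.4 CPM in library 3 to 1342 CPM in library 5, and the summed adipocyte markers had the exact reverse. Of the stromal markers Col1a1 was higher in HF than in LF and lower in HFLF than in HF, and the other two were not called. Hmgcs1 had another order, highest in library 6 and lowest in library 2. Over 5 adipocyte markers, Adipoq and Plin1 fell and Lep rose, with a sum of 11548 to 28048 CPM in HF and 16594 to 29122 CPM in LF eWAT. Of 4 clock genes (Dbp, Nr1d1, Arntl and Per1), 2 were lower and 0 higher in HF than in LF eWAT. The part of these markers and clock genes in the results was not tested.

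**Figure D4:**
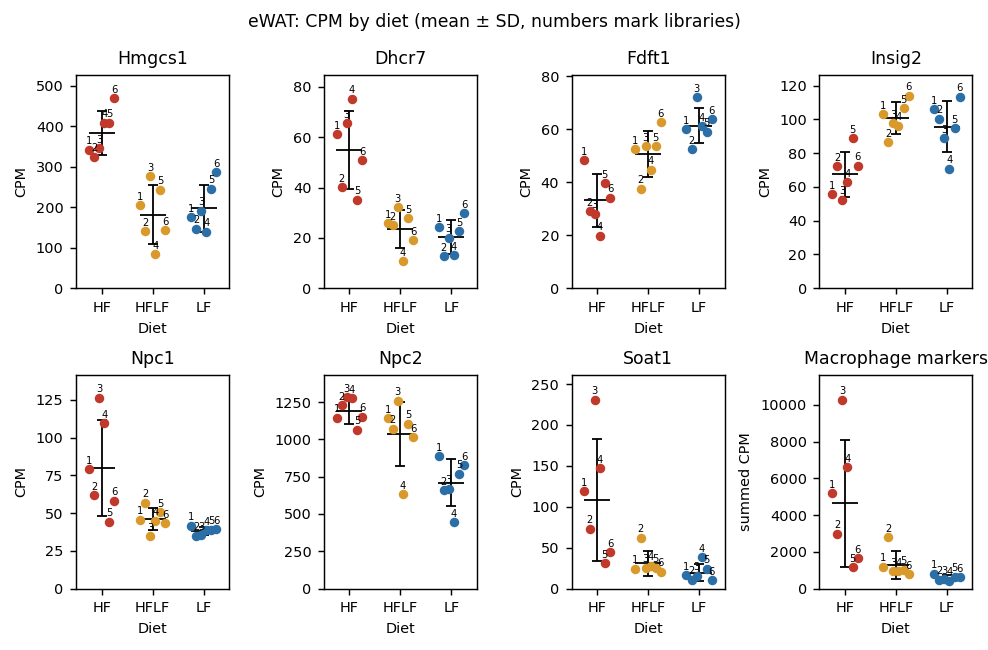
CPM of Hmgcs1, Dhcr7, Fdft1, Insig2, Npc1, Npc2 and Soat1 in the 18 eWAT libraries by diet, and the summed CPM of 7 macrophage markers, with the mean ± SD of 6 libraries as bars and the library number beside each point. HF libraries 3 and 4 are highest and HF library 5 lowest for Soat1, Npc1 and the marker sum, while Hmgcs1 lies between 325 and 469.8 CPM in all 6 HF libraries.

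Of the 11 eWAT calls of HF against LF, only that of Hsd17b7 was lost under any alternative, in the fit of the compared diets alone (adjusted p = 0.0501) and without HF library 4 (adjusted p = 0.0532). All 11 were kept without the 6 eWAT libraries named above, where Stard4 was also called higher (0.83, adjusted p = 0.0101).

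After the switch, edgeR called 0 of the 29 genes between eWAT of HFLF and LF. Of all genes 0.342% were called higher and 0.222% lower, and 4 of the 29 had an unadjusted p under 0.05, Npc2 (0.55 ± 0.16, adjusted p = 0.108), Scap (-0.23 ± 0.06, adjusted p = 0.0864), Cyp51 (-0.49 ± 0.18, adjusted p = 0.166) and Msmo1 (-0.36 ± 0.17, adjusted p = 0.273). DESeq2 and limma voom each called Npc2 higher and Scap lower in HFLF. Npc2 had 631, 1089 and 1260.2 CPM in HFLF eWAT and 446, 719 and 889 CPM in LF eWAT, and every HFLF library but number 4 lay above all LF libraries. Scap, the escort of SREBP, had 56.8, 62.5 and 66.4 CPM in HFLF eWAT and 66.6, 73 and 83.1 CPM in LF eWAT, every HFLF library below every LF library. It was the 1 gene of 29 with no overlap here, where 0.665% of all genes lay wholly below and 1.9% wholly above.
Srebf2 had 57.9, 69 and 79.5 CPM in HFLF eWAT and 68.5, 85.2 and 129 CPM in LF eWAT (-0.39 ± 0.19, adjusted p = 0.283). Insig1 had 66.7, 168 and 223 CPM in HFLF eWAT and 86.2, 162 and 198 CPM in LF eWAT (0.06 ± 0.28, adjusted p = 0.934). Sqle had 14.9, 21.7 and 32.1 CPM in HFLF eWAT and 18.8, 29.6 and 38.8 CPM in LF eWAT (-0.38 ± 0.24, adjusted p = 0.409). For these 3 the ranges of the diets overlapped. Soat1, at 20.6, 25.3 and 61.9 CPM in HFLF eWAT, had a log2 fold change of 0.68 ± 0.45, adjusted p = 0.428, and the other 21 members ran from -0.79 (Soat2) to 0.27 (Npc1).

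Set against HF, HFLF eWAT had 2 of the 29 genes higher and 10 lower. Hmgcs1, Mvd, Cyp51, Msmo1, Hsd17b7, Ebp and Dhcr7 of synthesis were lower, with Insig1, Npc1 and Soat1, and Fdft1 and Insig2 were higher. Of all genes 10.7% were called higher and 14.7% lower, with 42.1% of the called genes higher, and 53.6% under upper-quartile scaling. Of the 29 genes, 13 had an unadjusted p under 0.05. The median log2 fold change of the 29 was -0.33, against -0.0012 for all genes. These values share the HF libraries with the comparison of HF and LF.

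Dhcr7 had 10.7, 25.4 and 32.1 CPM in HFLF eWAT and 35.2, 56.1 and 75.4 CPM in HF eWAT, with a log2 fold change of -1.23 ± 0.26, adjusted p = 0.00408. Hmgcs1 had 84.2, 174 and 277 CPM in HFLF eWAT and 325, 378 and 469.8 CPM in HF eWAT (-1.07 ± 0.24, adjusted p = 0.00532). Neither gene's ranges overlapped. Msmo1 had 16.2, 19.4 and 21.2 CPM in HFLF eWAT and 21.4, 28.5 and 54.3 CPM in HF eWAT (-0.75 ± 0.17, adjusted p = 0.00528), and Hsd17b7 had 7.98, 9.92 and 11.8 CPM in HFLF and 14.2, 16.6 and 20.2 CPM in HF (-0.78 ± 0.19, adjusted p = 0.00738). All HFLF libraries lay below all HF libraries for these genes too. Such 4 of 29 compare with 4.67% of all genes wholly lower in HFLF, and 0 of 29 with 4.77% wholly higher.
Insig2 had 86.3, 100.4 and 114 CPM in HFLF eWAT and 52.4, 67.6 and 89 CPM in HF eWAT (0.58 ± 0.13, adjusted p = 0.00435), with only HF library 5 inside the HFLF range. Npc1 had 34.7, 45.2 and 56.8 CPM in HFLF eWAT and 44.2, 70.4 and 126 CPM in HF eWAT (-0.80 ± 0.20, adjusted p = 0.00891). The other calls were Soat1 (-1.80 ± 0.46, adjusted p = 0.00925), Fdft1 (0.61 ± 0.17, adjusted p = 0.0137), Insig1 (-0.92 ± 0.28, adjusted p = 0.0243), Mvd (-0.74 ± 0.24, adjusted p = 0.0307), Ebp, the sterol isomerase (-0.24 ± 0.08, adjusted p = 0.0386), and Cyp51, the lanosterol demethylase (-0.52 ± 0.18, adjusted p = 0.0408). All 7 macrophage markers and the stromal marker Col1a1 were lower in HFLF than in HF eWAT as well. Of the 4 clock genes, 2 were higher and 0 lower in HFLF than in HF. Nr1d1 had 265 to 375 CPM in HFLF eWAT and 103 to 201 CPM in HF eWAT. The part of these markers and clock genes was not tested. Srebf2 was not called (-0.50 ± 0.19, adjusted p = 0.0592), and the other 16 genes lay between -0.67 (Soat2) and 0.39 (Acat2).
Without the 6 eWAT libraries named above, Hmgcs1, Hsd17b7, Dhcr7, Fdft1 and Insig2 kept their calls and 7 were lost. The values were then -0.70 for Msmo1, -0.78 for Npc1, -1.63 for Soat1 and -0.69 for Insig1, with adjusted p of 0.0766, 0.095, 0.0798 and 0.0706, and -0.53, -0.35 and -0.16 for Mvd, Cyp51 and Ebp. Leaving out 1 library at a time, 6 genes were called lower without HF library 3, HF library 4 or HFLF library 6, each time with Mvd, Cyp51, Ebp and Insig1 lost.

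**Figure D5:**
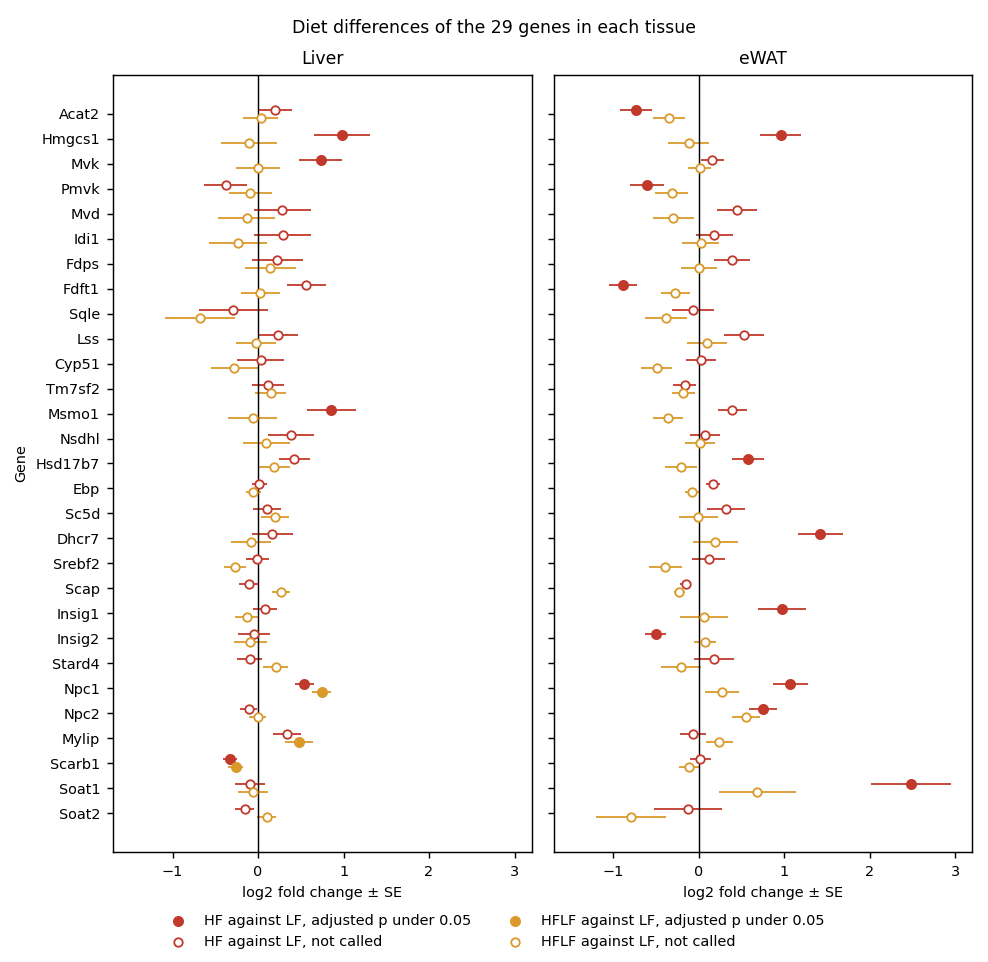
Log2 fold changes ± SE of the 29 genes for HF against LF (red) and HFLF against LF (gold) in liver (left) and eWAT (right), with filled points for an adjusted p under 0.05. Soat1 in eWAT has the largest value, 2.49 for HF against LF, and the filled HFLF points are Npc1, Mylip and Scarb1 in liver.

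Spread among synthesis genes in eWAT was smaller than in liver on HF, close to it on HFLF and somewhat larger on LF. The median coefficient of variation of the 18 genes was 19.1% in HF, 28.4% in HFLF and 24.5% in LF eWAT. All genes with a mean CPM between the lowest and the highest synthesis gene had a median of 15.1% in HF, 10.8% in HFLF and 14.4% in LF eWAT. HFLF library 4 was the lowest of its group for 15 of 18 genes (25.7% of all genes), HFLF library 3 the highest for 12 (17.5%), and LF library 6 the highest for 10 (14%). HFLF library 4 also had the second highest Crisp1 value of all eWAT libraries, as given above.

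Whether diet effects differed between tissues was tested as an interaction over the 13206 genes in both tables and all 36 libraries, as the liver log2 fold change minus the eWAT one. For HF against LF, 6 of the 29 genes were called, where 24.6% of all genes were higher in that difference and 21% lower. Fdft1 had the smallest p, at 1.51 ± 0.30, adjusted p = 0.000159, with a value of 0.56 in liver and -0.89 in eWAT. Soat1 (-2.51 ± 0.52, adjusted p = 0.000289), Npc2 (-0.81 ± 0.19, adjusted p = 0.00096) and Acat2 (0.99 ± 0.28, adjusted p = 0.00505) followed, and Dhcr7 (-1.20 ± 0.36, adjusted p = 0.00721) and Insig1 (-0.84 ± 0.32, adjusted p = 0.0307) were called too. The difference of Hmgcs1 was 0.08 ± 0.42, adjusted p = 0.887, with nearly equal fold changes of 0.98 in liver and 0.96 in eWAT. That of Npc1 was -0.48 ± 0.24, adjusted p = 0.0976.
For HFLF against LF, 1 of 29 was called against a background of 4.96% higher and 3.6% lower: Scap, at 0.54 ± 0.13, adjusted p = 0.0139. The next by p were Npc2 (-0.52 ± 0.19, adjusted p = 0.0784), Soat2 (0.90 ± 0.39, adjusted p = 0.127) and Npc1 (0.51 ± 0.24, adjusted p = 0.16), none of them called. For HFLF against HF, 4 of 29 were called, with 9.18% of all genes higher and 8.78% lower. These were Npc1 (0.99 ± 0.24, adjusted p = 0.00503), Fdft1 (-1.17 ± 0.30, adjusted p = 0.00762), Soat1 (1.82 ± 0.52, adjusted p = 0.0154) and Scap (0.44 ± 0.13, adjusted p = 0.0219).

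Other genes of sterol metabolism were read from a list of 38 that does not share members with the 29, of which 34 were in the liver table and 36 in the eWAT table. In liver HF against LF 8 rose and 7 fell, beside 16.3% and 18.5% of all liver genes. The ubiquitin-conjugating enzyme gene Ube2g2 had 37.7, 39.3 and 48.9 CPM in HF livers and 46.5, 56.8 and 88.7 CPM in LF livers (-0.67 ± 0.14, adjusted p = 0.00219). The oxysterol-binding protein gene Osbp (-0.48 ± 0.11, adjusted p = 0.00347) and Erlin1 of the endoplasmic reticulum (-0.41 ± 0.10, adjusted p = 0.00444) fell as well. In liver HFLF against LF 2 rose and 4 fell, beside 10.2% and 12.4% of all liver genes. These calls were led by Ube2g2 (-0.85 ± 0.14, adjusted p = 0.00118), Osbp (-0.53 ± 0.11, adjusted p = 0.00352), the cholesterol ester hydrolase gene Nceh1 (0.95 ± 0.21, adjusted p = 0.00487) and Erlin2 (0.26 ± 0.06, adjusted p = 0.00696). Liver values of this list against LF are given only with LF libraries 1 to 4, those with high stress genes, included. Among LF livers Ube2g2 was lowest in library 5 and highest in library 2. The part of the stress genes in these values was not tested. Between HFLF and HF livers only Pgrmc1, a heme-binding partner of cytochromes P450, was called (-0.46 ± 0.10, adjusted p = 0.015). Of all liver genes 2.18% were higher and 3.05% lower in that comparison.
In eWAT HF against LF 9 of 36 rose and 9 fell, beside 20.6% and 20.2% of all eWAT genes. Lipa, the acid lipase that frees cholesterol from esters in lysosomes, had 137, 456 and 1009 CPM in HF eWAT and 57.2, 74.3 and 83.2 CPM in LF eWAT (2.80 ± 0.42, adjusted p = 0.000113). Pgrmc1 (-0.63 ± 0.08, adjusted p = 5.32e-05), the P450 reductase gene Por (-1.12 ± 0.15, adjusted p = 6.27e-05) and the acetoacetate-activating enzyme gene Aacs (-1.64 ± 0.25, adjusted p = 0.00012) fell. In eWAT HFLF against LF 0 of 36 were called, beside 0.342% of all genes higher and 0.222% lower, with 10 at an unadjusted p under 0.05. In HFLF against HF 5 rose and 7 fell, beside 10.7% and 14.7% of all eWAT genes. These calls were led by the sterol hydroxylase gene Cyp27a1 (0.61 ± 0.11, adjusted p = 0.0017), Por (0.78 ± 0.15, adjusted p = 0.00233), the endosomal sterol carrier gene Stard3 (-0.75 ± 0.16, adjusted p = 0.0036) and Lipa (-1.78 ± 0.40, adjusted p = 0.00506).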

How the data were processed

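Whole-number counts per gene were deposited as 1 table for each tissue. Per the submitters' processing notes, STAR and GRCm38.p6 were used, while for the counting tool, its annotation and its strand setting the sources used here give nothing. Deposited RPKM tables were not used, because the gene lengths they imply differ between libraries. IDs were matched to GENCODE M21, with 14034 of 14052 liver and 16668 of 16690 eWAT genes found.

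From the counts, edgeR 4.0.16 (R 4.3.3) computed TMM factors, TMM-scaled CPM and quasi-likelihood F tests with robust estimation, on all 18 libraries of a tissue, with Benjamini-Hochberg adjustment over the whole table and a threshold of 0.05. Differences between tissues were tested as an interaction over 36 libraries. The standard error is the log2 fold change divided by the square root of F. The fit of HF against LF was also run on simulated counts, drawn separately for each gene, with a small set of genes changed in HF only. That setting has no shifts shared by many genes of a library, so it cannot test for their effect. Alternatives were other scaling factors, DESeq2 1.42.0, limma 3.58.1 voom, a filter at 10 counts, the compared diets only, a replicate block and left-out libraries. CPM per kb used the union of exons.

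The members, lists and libraries left out were chosen with earlier results of these data known. Of the members, all are accounted for, and the 6 called ones with the smallest p are given in full, or, with fewer calls, the called ones with Srebf2, Insig1 and Sqle. In the interaction tests the 4 with the smallest p, and up to 4 related genes per comparison, are named, except 1 result that is not reported here. The related list lacked Npc1l1 and Faxdc2 in both tables and Lrp8 and Ch25h in liver. No 2 libraries of the same tissue and diet agreed within sampling noise, and other pairs were not compared.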

Additional observations from a re-analysis of the deposited data

Results flagged for a closer look

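Among 174 sets of 6 libraries (29 genes, 3 diets and both tissues), 8 held a library far from the other 5 by Dixon's criterion, which flags about 1 set in 20 by chance. In liver LF library 3, Hmgcs1 stood at 283.9 CPM and Lss at 89.4 CPM, above the other 5 LF libraries. In liver LF library 6, Npc1 stood at 153 CPM, and the next highest of the group at 114 CPM. The eWAT HF library 3 was high for Mvd at 38.9 CPM, for Idi1 at 6.30 CPM, for Sqle at 47.4 CPM and for Srebf2 at 165 CPM. The same library had the highest macrophage marker sum of all, 10279 CPM, and the lowest Adipoq, and the part of these in the values was not tested. In eWAT HFLF library 2, Soat1 stood at 61.9 CPM, where the other 5 lay between 20.6 and 28.1 CPM, and its macrophage marker sum of 2799 CPM was the highest of the HFLF group.

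The diet effect differed between the tissues, by the interaction test, for the following genes. The liver log2 fold change minus the eWAT one for HF against LF was 1.51 for Fdft1, 0.99 for Acat2, -1.20 for Dhcr7, -0.84 for Insig1, -0.81 for Npc2 and -2.51 for Soat1. For HFLF against LF it was 0.54 for Scap. For HFLF against HF it was -1.17 for Fdft1, 0.44 for Scap, 0.99 for Npc1 and 1.82 for Soat1.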

How the results depend on the processing

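The eWAT counts of called members for HF against LF stayed within 1.5 times of 7 and 4 under all alternatives run, while the liver counts depended on which LF libraries entered. For liver HF against LF, higher members numbered 1 by limma voom, 2 with the replicate block, 0 without LF libraries 1 to 4 and 1 with LF libraries 1 and 2 out. Lower members numbered 0 without LF libraries 1 to 4. Srebf2, uncalled, turned to 0.069 with upper-quartile factors, 0.0027 in the fit of the compared diets alone, 0.36 without LF libraries 1 to 4 and 0.041 with LF libraries 1 and 2 out, and Sqle to 0.46 without LF libraries 1 to 4. For liver HFLF against LF, lower members numbered 0 with upper-quartile factors, with the compared diets alone and in both fits with fewer LF libraries. Higher members numbered 1 with the compared diets alone, with the replicate block and with LF libraries 1 and 2 out, and 0 without LF libraries 1 to 4, where Srebf2 stood at 0.093 and Sqle at 0.072. For liver HFLF against HF, DESeq2 called 1 higher and 3 lower, voom 1 higher with Sqle at 0.0043, and the fit without LF libraries 1 to 4 called 1 higher. For eWAT HFLF against LF, DESeq2 and voom each called 1 higher and 1 lower. Without the 6 eWAT libraries, 3 members were lower in HFLF than in HF. The interaction for HFLF against LF called 0 without LF libraries 1 to 4 of liver and 0 without the 6 eWAT libraries. The causes were not tested.

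Leaving out 1 library at a time, liver HF against LF gave 1 to 6 higher and 1 to 2 lower members and Srebf2 values of -0.076 to 0.068. Liver HFLF against LF gave 1 to 3 higher and 0 to 1 lower, liver HFLF against HF 0 to 1 higher and 0 to 2 lower. In eWAT, HFLF against LF gave 0 to 1 higher and Insig1 values of -0.084 to 0.213, and HFLF against HF gave 6 to 11 lower. The interactions called 1 to 3 members for HFLF against LF and 4 to 7 for HFLF against HF.

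Counts over all genes moved by over 1.5 times in some fits. Liver HF against LF gave 4891 calls, with 297 if LF libraries 1 to 4 were out and 2742 if LF libraries 1 and 2 were, and HFLF against LF gave 3176, with 26 and 1396. Liver HFLF against HF gave 735, with 1312 by DESeq2, 1729 by voom, 1181 with the compared diets alone, 444 with the replicate block, 1355 if LF libraries 1 to 4 were out and 215 to 1036 without 1 library, the lowest without HF library 4. In eWAT, HFLF against LF gave 94, with 704 by DESeq2, 644 by voom, 15 with the replicate block and 0 to 341 without 1 library, and HFLF against HF gave 4242, with 1390 without the 6 libraries.

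Replicate numbers were not shown to pair libraries: between diets of 1 tissue, 0 to 2 of 6 libraries matched their own number best. Between liver and eWAT 5 of 6 LF libraries did (correlations of 0.0429 to 0.155), 2 of 6 HF and 1 of 6 HFLF libraries, a hint from the data and not from the labels. With the same-numbered liver and eWAT libraries of a diet as a replicate block, the interactions called 7, 1 and 4 members, against 6, 1 and 4 without it. The replicate block lost the calls of Mvk and Msmo1 in liver HF against LF (adjusted p of 0.0523 and 0.0537) and of Mylip in HFLF against LF (0.0679).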
